A study of Mus musculus with 28 samples.

Results

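A set of 9 genes of the interferon response and of RNA sensing, Dhx58, Ifih1, Irf1, Irf7, Irf9, Stat2, Isg15, Bst2 and Ido1, were followed in P19 cells, a mouse embryonal carcinoma line that forms neural cells in retinoic acid. They are 9 of the 55385 gene identifiers in the deposited RNA table, were found by Ensembl identifier, and were picked because Dhx58 and Ido1 are higher with the drug MS-275, so their drug values are given as a description and without a test. All 9 passed the filter on low counts, Ido1 only through the MS-275 libraries, in which a gene so kept had to be higher. MS-275 (entinostat) inhibits class I histone deacetylases, the enzymes that take acetyl and some other acyl groups off histones. The 5 RNA groups of 2 libraries each were used. Undifferentiated P19 cells in proliferation medium formed day 0. For the day 2 groups, cells received 1 µM retinoic acid for 2 days, and after the first 24 hours either 1 µL of 10 mM MS-275 or 1 µL of DMSO, the solvent, was added. Day 4 cells had 4 days of retinoic acid and are labelled as neural stem and progenitor cells, as are the day 2 cells. Day 8 cells, labelled as neurons, were replated after those 4 days in B27 medium for another 4 days. Native chromatin immunoprecipitation (ChIP) of H3K9ac (acetylated lysine 9 of histone H3), H3K9cr (crotonylated lysine 9) and H3K18la (lactylated lysine 18) gave peak lists at day 2 from 1 library per mark and condition, and at day 4 from 2 per mark. ATAC-seq, which marks open chromatin, gave 2 further lists at day 4.

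RNA libraries held 18115738 to 19586107 estimated counts, and 17789 genes were tested. The series text calls the replicates biological, and every p-value measures the spread between these libraries of a single cell line. Levels are CPM, counts scaled to a common library size with the trimmed mean of M-values (TMM). Summed levels of the pluripotency markers Pou5f1, Nanog, Utf1 and Dppa5a were 1726 to 1778 CPM at day 0, 97.5 to 103 CPM with MS-275, 45.0 to 46.9 CPM with DMSO, 2.89 to 4.22 CPM at day 4 and 48.6 to 55.8 CPM at day 8. Neural progenitor markers Sox1, Pax6, Nes and Neurog1 summed to 667 to 720 CPM with MS-275, 491 to 493 CPM with DMSO and 511 to 570 CPM at day 4, against 211 to 221 CPM at day 0. These sums are mostly Nes, and the single markers split between MS-275 and DMSO. Group means were higher with MS-275 for Nes (616 and 352 CPM) and Pax6 (44.0 and 16.2 CPM). They were lower for Sox1 (32.3 and 107 CPM) and Neurog1 (1.44 and 16.9 CPM). Neuron markers Tubb3, Map2, Dcx and Mapt summed to 2008 to 2092 CPM at day 4 and 3139 to 3369 CPM at day 8, against 86.7 to 93.3 CPM at day 0. Their sums were 307 to 319 CPM with MS-275 and 243 to 265 CPM with DMSO. Between these 2 groups, means were higher with MS-275 for Mapt (73.4 and 1.20 CPM) and Map2 (152 and 120 CPM). Those of Tubb3 (54.6 and 93.8 CPM) and Dcx (32.3 and 38.6 CPM) were lower. Since interferon genes are also active in immune cells, 10 markers of microglia, macrophages and blood cells were examined. They summed to 9.46 to 9.71 CPM with MS-275 and 3.07 to 3.98 CPM with DMSO, and to between 2.68 and 7.88 CPM in the other groups. Most of the difference between MS-275 and DMSO is Lyz2, with means of 6.06 and 1.68 CPM. Itgam (1.19 and 0.247 CPM) and Cd68 (2.09 and 1.38 CPM) were also higher. The other 7 were under 1 CPM in both groups, and of these Aif1 (0.0744 and 0.159 CPM) was lower with MS-275. Tyrobp had 0 counts throughout, and 7 to 9 of the 10 were under 1 CPM in each group. The fibroblast markers Col1a1, Col3a1, Dcn and Pdgfra summed to 417 to 450 CPM with MS-275 and 23.0 to 23.4 CPM with DMSO. The corresponding sums were 25.6 to 31.9 CPM at day 0, 560 to 636 CPM at day 4 and 954 to 988 CPM at day 8. The sum with MS-275 is mostly Col1a1, with means of 357 CPM with MS-275 and 3.33 CPM with DMSO. Pdgfra (70.1 and 13.3 CPM) and Col3a1 (3.95 and 1.92 CPM) were also higher, while Dcn (2.06 and 4.64 CPM) was lower. The part of these cell markers in the results was not tested, and in bulk RNA fewer cells of a type and less RNA per cell cannot be told apart.

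In vertebrate cells, viral or misplaced RNA is bound by helicases such as the products of Ddx58 (RIG-I) and Ifih1 (MDA5), which signal through Mavs to switch on interferon genes. Secreted interferon acts through its receptor and Jak kinases on the factor ISGF3, whose subunits include Stat2 and Irf9. ISGF3 and related factors bind the interferon-stimulated response element (ISRE) in promoters of the effector genes. Embryonic and embryonal carcinoma cells are known for a weak interferon response.

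The ISRE was searched on both strands, as GAAA and GAAA with any 2 bases between them, from 250 bases before to 50 bases after annotated gene starts. It was found in 3.44% of the 32851 promoters in the RefSeq table. The table held 7 of the 9 genes, all but Dhx58 and Ido1, and 4 of the 7 had an ISRE. Their promoters are shown because they let the response elements be compared gene by gene. They are RefSeq sequences of build GRCm38.p6, on the gene's strand, with the ISRE in capitals.
Isg15, chr4:156200769-156201068, minus strand: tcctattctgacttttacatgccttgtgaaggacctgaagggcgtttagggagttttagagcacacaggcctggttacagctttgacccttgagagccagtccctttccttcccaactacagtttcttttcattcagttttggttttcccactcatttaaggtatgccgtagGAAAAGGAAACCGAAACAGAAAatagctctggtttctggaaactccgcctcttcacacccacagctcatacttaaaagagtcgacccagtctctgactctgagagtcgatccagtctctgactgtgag
Bst2, chr8:71537423-71537722, minus strand: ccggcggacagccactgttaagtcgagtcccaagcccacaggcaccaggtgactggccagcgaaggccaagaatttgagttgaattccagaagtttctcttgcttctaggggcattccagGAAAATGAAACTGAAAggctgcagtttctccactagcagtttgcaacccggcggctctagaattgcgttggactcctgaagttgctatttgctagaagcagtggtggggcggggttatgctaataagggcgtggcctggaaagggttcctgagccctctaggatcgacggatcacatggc
Stat2, chr10:128270248-128270547, plus strand: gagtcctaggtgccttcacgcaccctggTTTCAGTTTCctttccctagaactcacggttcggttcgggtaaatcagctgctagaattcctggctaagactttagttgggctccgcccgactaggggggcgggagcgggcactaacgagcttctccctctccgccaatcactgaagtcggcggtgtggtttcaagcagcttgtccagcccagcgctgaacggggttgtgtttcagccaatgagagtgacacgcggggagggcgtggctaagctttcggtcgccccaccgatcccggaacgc
Ifih1, chr2:62646206-62646505, minus strand: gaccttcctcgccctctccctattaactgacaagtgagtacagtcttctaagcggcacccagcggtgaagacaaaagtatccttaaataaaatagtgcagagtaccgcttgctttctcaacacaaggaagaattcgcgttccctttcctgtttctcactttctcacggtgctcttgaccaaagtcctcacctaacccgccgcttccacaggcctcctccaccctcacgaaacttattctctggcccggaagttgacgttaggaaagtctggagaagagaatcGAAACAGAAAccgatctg
Isg15 carried 3 overlapping matches that began 78, 72 and 66 bases before the start. Bst2 carried 2 overlapping matches that began 130 and 124 bases before the start. The Stat2 match read on the other strand, as TTTCAGTTTC, and lay 222 bases before the start. The Ifih1 match lay within the transcribed part, 32 bases after the start. The gamma-activated site bound by STAT dimers, searched as TTCNNNGAA, occurs in 8.3% of all promoters. It was found in Irf1 as TTCCCCGAA, 90 bases before the start, and in Bst2 as TTCCAGGAA, 136 bases before the start, where it overlaps the first ISRE. Neither motif was found in the windows of Irf7 and Irf9, which says only that these letters are absent there. Among other interferon pathway genes, 20 of the 75 with a promoter entry had the ISRE, and among the interferon-stimulated effectors 13 of 25.

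With MS-275, 8 of the 9 genes had a positive fitted log2 fold change over DMSO, with a median of 2.90, while the median over all genes tested was 0.01. In this comparison 63.3% of all genes were called, meaning a Benjamini-Hochberg adjusted p under 0.05 in edgeR's quasi-likelihood test, 31.9% higher and 31.4% lower. The values of the 2 groups did not overlap for any of the 9 genes, nor for 81.5% of all genes tested, and the 9 genes were picked on this contrast.

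The RNA sensors were both higher. Dhx58 (LGP2, a helicase that binds double-stranded RNA but lacks the signalling domains of its relatives) had 18.1 and 15.7 CPM with MS-275, against 2.15 and 2.39 CPM with DMSO. It lies at chr11:100694884-100704271 (RefSeq span on GRCm38.p6, as for the other genes), where the non-coding gene Gm38483 overlaps it and Kat2a lies within 1 kb. The drug libraries stood above all 8 others, in which Dhx58 ranged from 1.35 to 2.81 CPM, and the ratio of means to DMSO was 7.48. Ifih1 (MDA5, a sensor of long double-stranded RNA, at chr2:62595618-62646255) had 2.23 and 1.44 CPM with MS-275, against 0.157 and 0.0569 CPM with DMSO. The DMSO level rests on 4 counts in all, and the ratio was 16.8. The fitted log2 fold change of 4.00 became 4.86 without DMSO replicate 1. Unlike Dhx58, Ifih1 was about as high at day 4 as with the drug, at 1.84 and 1.72 CPM.

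Among the transcription factors, Stat2 and Irf1 were higher and Irf9 was not. Stat2 (the ISGF3 subunit that carries the main activation domain, at chr10:128270498-128292853) had 51.2 and 51.6 CPM with MS-275, against 19.8 and 20.5 CPM with DMSO. Its drug libraries were the highest of all 10, and the ratio was 2.55. Irf1 (a factor that responds to interferon gamma, at chr11:53770014-53778374) had 51.3 and 52.6 CPM with MS-275, against 28.9 and 32.9 CPM with DMSO. The ratio was 1.69, and both day 2 groups were above day 0, day 4 and day 8. Irf9 (the DNA-binding subunit of ISGF3, at chr14:55603985-55610030) had 12.4 and 10.9 CPM with MS-275, against 12.7 and 13.6 CPM with DMSO. The groups were adjacent, with a ratio of 0.886. Irf7 (the factor that drives interferon alpha genes, at chr7:141263183-141266499) had 0.594 and 0.747 CPM with MS-275, against 0.366 and 0.341 CPM with DMSO. These are 27 and 13 counts in all, and the ratio was 1.89.

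The effectors showed large differences. Isg15 (a ubiquitin-like protein that is linked to other proteins, at chr4:156199424-156200818) had 1.78 and 1.34 CPM with MS-275, against 0.157 and 0.171 CPM with DMSO, a ratio of 9.56 on 63 and 6 counts. Bst2 (tetherin, a membrane protein that holds budding virus at the cell surface, at chr8:71534255-71537472) had 35.8 and 34.1 CPM with MS-275, against 4.24 and 3.98 CPM with DMSO, a ratio of 8.49. The drug level of Bst2 remained below day 0, where it was 74.5 and 71.6 CPM. Ido1 (indoleamine dioxygenase, which starts the breakdown of tryptophan to kynurenine, at chr8:24584133-24596952) had 1.58 and 1.14 CPM with MS-275, against 0 and 0.0569 CPM with DMSO. That is 55 counts against 1, a ratio of 50.1 with a 95% counting interval of 8.62 to 2014, which covers counting error only. In the other 6 libraries Ido1 ranged from 0 to 0.158 CPM, and both day 4 libraries had 0 counts, which allows up to 0.0809 CPM over that group.

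**Figure D1:**
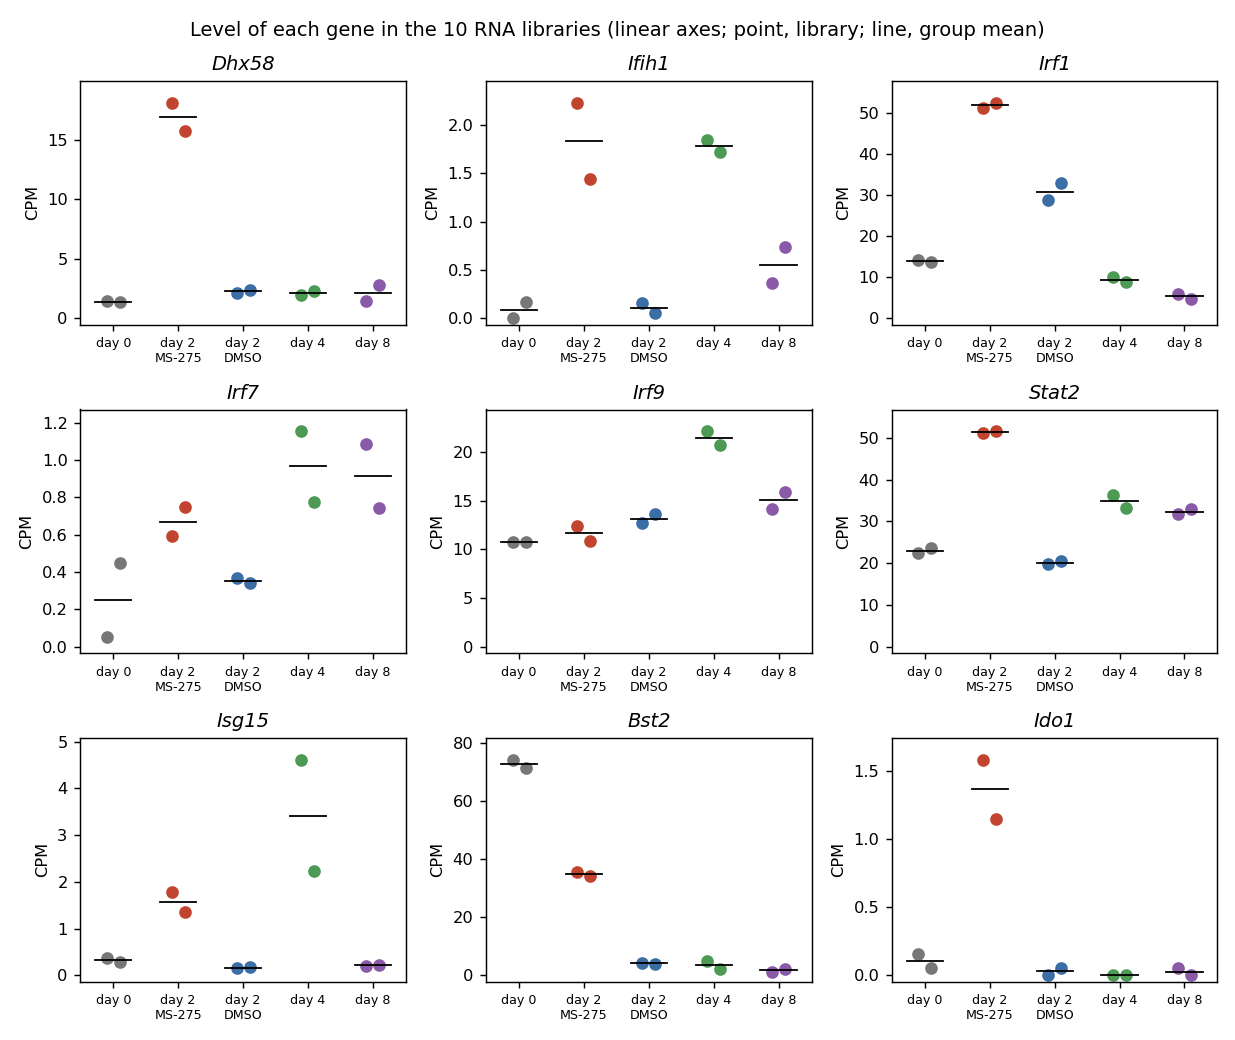
TMM-scaled CPM of each gene (vertical, linear axes) in the 10 RNA libraries (horizontal, by group), with a point per library and a line at the group mean. Dhx58 and Ido1 stand out with MS-275, Bst2 is highest at day 0 (74.5 and 71.6 CPM), and Isg15 and Irf9 peak at day 4.

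The rule that picked the 9 genes did not name the other genes of the pathway, whose test values in this contrast are given as a description. Of 90 such genes, 70 were tested; 39 rose with MS-275 and 3 fell. The share that rose, 55.7%, compares with 31.9% of all genes, and the median log2 fold change was 0.96. Of the 39, Ido2 and Haao passed the filter on low counts only through the MS-275 libraries and so had to be higher. Without genes kept only through one of the groups compared, 37 of 68 rose, or 54.4%, where 30.4% of all genes did. These lists are a description and were drawn up with earlier results of these data known, so they are not independent of this contrast. No interferon gene was among them: of 10 ligands none reached the filter, and all 10 had 0 counts in the day 0 and both day 2 groups. Only Ifnk had counts anywhere, 3 in day 4 replicate 2 and 1 in day 8 replicate 1.

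Sensors and adaptors split, with 5 of 12 higher and 2 lower. Tlr3, a receptor for double-stranded RNA in endosomes, rose to 4.42 ± 1.46 CPM with MS-275, against 0.491 ± 0.0287 CPM with DMSO (SD, n = 2 each; log2 fold change 3.15, SE 0.463, edgeR adjusted p = 1.69e-05). Trim25, a ubiquitin ligase that activates RIG-I, rose to 8.59 ± 0.601 CPM, against 1.06 ± 0.208 CPM (log2 3.01, SE 0.207, edgeR adjusted p = 2.47e-09). Ddx58 itself had 11.1 ± 0.768 CPM with MS-275 and 1.95 ± 0.271 CPM with DMSO (log2 2.50, edgeR adjusted p = 2.25e-08). Mavs, the adaptor of both RIG-I and MDA5, fell by 0.54 on the log2 scale. Of 11 receptors, kinases and STATs, 6 rose and 1 fell. Stat3, which carries cytokine signals, rose to 96.0 ± 0.712 CPM, against 27.3 ± 1.99 CPM (log2 1.81, SE 0.0745, edgeR adjusted p = 6.11e-12). The interferon lambda receptor gene Ifnlr1 rose to 2.26 ± 0.184 CPM, against 0.157 ± 0.222 CPM (log2 3.74, edgeR adjusted p = 5.23e-04). Its DMSO counts all lay in replicate 1, and the log2 fold change was 2.81 without DMSO replicate 2.

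Of 6 other interferon regulatory factors, 4 rose. Irf8, best known from myeloid and lymphoid cells, had 15.5 ± 0.160 CPM with MS-275 and 0.489 ± 0.0485 CPM with DMSO (log2 4.96, SE 0.267, edgeR adjusted p = 1.31e-10). The difference in the summed immune cell markers, most of it in Lyz2, is given above. Of the 26 effectors tested, 13 rose, and the other 13 were not called. Rsad2 (viperin, an antiviral enzyme) had 2.08 and 0.946 CPM with MS-275, against 0 counts in both DMSO libraries, and was at least 18.5-fold higher with the floor of 3 counts set over the group (edgeR adjusted p = 5.09e-05). Oas1a, which makes the signal that activates RNase L, had 85 counts against 3, a ratio of 25.8 with a counting interval of 8.54 to 128 (edgeR adjusted p = 1.99e-05). All 3 DMSO counts lay in replicate 1, and the fitted log2 fold change of 4.59 became 3.69 without DMSO replicate 2. Oas1a had 1.77 ± 0.120 CPM at day 0 and 2.11 ± 0.183 CPM with MS-275, while Rsad2 had 0 counts at day 0. Reads of Oas, Ifitm and Gbp genes may be shared between similar copies, so single values of these families are uncertain.

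Of 3 tested genes of Isg15 conjugation, 2 rose. Usp18, which removes Isg15 from proteins, had 108 counts with MS-275 and 2 with DMSO, a ratio of 49.2 with a counting interval of 13.3 to 411 (edgeR adjusted p = 1.03e-06). Both DMSO counts lay in replicate 2, and the fitted log2 fold change of 5.46 became 4.48 without DMSO replicate 1. Usp18 had 1.92 ± 0.334 CPM at day 0 and 2.68 ± 0.150 CPM with MS-275, so it was not low before the day 2 groups. Ube2l6, the conjugating enzyme, rose to 9.23 ± 0.178 CPM, against 3.46 ± 0.00935 CPM (log2 1.41, edgeR adjusted p = 4.23e-05). Of the 4 genes of the kynurenine pathway that passed the filter through other groups too, 3 rose. Ido2, the relative of Ido1, and Haao passed only through the MS-275 libraries, so they are given without a test. Ido2 had 1.99 ± 0.218 CPM with MS-275 and 0.135 ± 0.0306 CPM with DMSO (SD, n = 2 each). Kynu, a later enzyme of the pathway, rose to 3.003 ± 0.446 CPM, against 1.12 ± 0.104 CPM (log2 1.42, edgeR adjusted p = 0.00893). The call of Kynu was lost without MS-275 replicate 1 (edgeR adjusted p = 0.0960) and without DMSO replicate 1 (edgeR adjusted p = 0.0662). Of 6 negative regulators, 4 rose, among them Ptpn6, a phosphatase, with a log2 fold change of 2.41 (edgeR adjusted p = 1.85e-08), and Socs3, an inhibitor of Jak kinases, with 1.53 (edgeR adjusted p = 7.74e-07).

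Day 2 DMSO and day 0 cells differ in retinoic acid, solvent and time together, and the parts of these cannot be told apart. Their comparison shares the DMSO libraries with the drug comparison. Of the 9 genes, 2 rose and 1 fell, where 64.6% of all genes were called, 32.4% higher and 32.2% lower. Bst2 fell to 4.24 and 3.98 CPM with DMSO, against 74.5 and 71.6 CPM at day 0, and was 17.8-fold lower (log2 -4.15, SE 0.177, edgeR adjusted p = 3.43e-12). Irf1 rose to 28.9 and 32.9 CPM, against 14.2 and 13.6 CPM (log2 1.15, SE 0.106, edgeR adjusted p = 6.71e-08). Irf9 rose to 12.7 and 13.6 CPM, against 10.7 and 10.8 CPM (log2 0.29, SE 0.120, edgeR adjusted p = 0.0428). The Irf9 call was lost without any 1 of the 4 libraries, the adjusted p then being 0.0666 without DMSO replicate 1, 0.18 without DMSO replicate 2, 0.12 without day 0 replicate 1 and 0.111 without day 0 replicate 2. Dhx58 had 2.15 and 2.39 CPM with DMSO and 1.47 and 1.35 CPM at day 0, groups that did not overlap but did not pass (edgeR adjusted p = 0.0615). Stat2 did not pass, with 19.8 and 20.5 CPM in DMSO cells against 22.3 and 23.7 CPM in day 0 cells (edgeR adjusted p = 0.0630). Isg15, Ifih1, Irf7 and Ido1 were low in these 4 libraries, with 1 to 13 counts per group, and were not called.

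At day 4, after 4 days of retinoic acid, 5 of the 9 genes were higher than at day 0 and 2 were lower, where 72.3% of all genes were called, 36.2% higher and 36.1% lower. Ifih1 had 1.84 and 1.72 CPM at day 4, against 0 and 0.168 CPM at day 0. These are 66 counts against 3, a ratio of 21.9 with a counting interval of 7.17 to 109 (edgeR adjusted p = 6.69e-05). All 3 day 0 counts lay in replicate 2, and the fitted log2 fold change of 4.34 became 3.35 without day 0 replicate 1. Isg15 had 4.62 and 2.22 CPM at day 4, against 0.368 and 0.280 CPM at day 0 (log2 3.37, SE 0.489, edgeR adjusted p = 9.95e-06). Its day 4 libraries differed from each other, yet both were above all 8 others, and the log2 fold change was 2.70 without day 4 replicate 1. The ISGF3 subunits Irf9 and Stat2 rose by less. Irf9 had 22.2 and 20.7 CPM at day 4, against 10.7 and 10.8 CPM at day 0 (log2 1.00, SE 0.115, edgeR adjusted p = 6.40e-07), its highest level in the series. Stat2 had 36.4 and 33.2 CPM, against 22.3 and 23.7 CPM (log2 0.60, SE 0.0821, edgeR adjusted p = 5.46e-06).

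Irf7 had 1.15 and 0.778 CPM at day 4, against 0.0525 and 0.449 CPM at day 0 (log2 1.95, SE 0.678, edgeR adjusted p = 0.0166). That call was lost without day 4 replicate 1 (log2 1.59, edgeR adjusted p = 0.122) and without day 0 replicate 1 (log2 1.09, edgeR adjusted p = 0.170), and the log2 fold change was 4.04 without day 0 replicate 2. Bst2 fell to 4.88 and 2.17 CPM at day 4, against 74.5 and 71.6 CPM at day 0, and was 20.5-fold lower (log2 -4.36, SE 0.181, edgeR adjusted p = 1.08e-12), or -5.12 on the log2 scale without day 4 replicate 1. Irf1 fell to 10.1 and 8.78 CPM, against 14.2 and 13.6 CPM (log2 -0.56, SE 0.121, edgeR adjusted p = 5.68e-04). Dhx58 did not pass, with 1.94 and 2.28 CPM in day 4 cells against 1.47 and 1.35 CPM in day 0 cells (log2 0.58, SE 0.308, edgeR adjusted p = 0.103). Ido1, with 0 counts in day 4 cells against 4 in day 0 cells, did not pass either (edgeR adjusted p = 0.0719). The drug and day 4 comparisons share no library, and the difference between them was not tested.

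Of the 70 other pathway genes, 30 rose at day 4 over day 0 and 21 fell, or 42.9% and 30% where 36.2% and 36.1% of all genes did. Of those that rose, the 5 effectors Ifit1, Oasl1, Xaf1, Rtp4 and Gbp3 passed the filter on low counts only through the day 4 libraries and so had to be higher there. Without genes kept only through one of the groups compared, 25 of 65 rose and 21 fell, or 38.5% and 32.3%, where 36.4% and 35.5% of all genes did. Of the 21 effectors left, 8 rose and 7 fell, or 38.1% and 33.3%. These shares are near those of all genes. Rsad2 had 5.20 and 2.72 CPM at day 4, against 0 counts at day 0, and was at least 49.1-fold higher (edgeR adjusted p = 1.44e-06). Ifit1, which binds foreign RNA ends, had 4.24 ± 1.13 CPM at day 4 and 0.245 ± 0.0497 CPM at day 0 (SD, n = 2 each), given without a test. Oas3 went the other way, with 3 counts at day 4 and 201 at day 0, and was 67.3-fold lower with a counting interval of 22.7 to 329 (edgeR adjusted p = 5.22e-07). The fitted log2 fold change of -5.96 became -5.03 without day 4 replicate 1, since all 3 day 4 counts lay in replicate 2. Herc6, the main ligase for Isg15 in the mouse, fell to 2.96 ± 0.645 CPM, against 16.8 ± 1.96 CPM (log2 -2.50, edgeR adjusted p = 1.31e-09), and Ube2l6 rose (log2 1.12, edgeR adjusted p = 9.84e-04).

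Among the sensors, 6 of 12 rose and 4 fell. Cgas, which senses DNA, rose to 3.19 ± 0.357 CPM at day 4, against 0.491 ± 0.0993 CPM at day 0 (log2 2.69, edgeR adjusted p = 1.28e-06). Ddx58 rose too (log2 1.60, edgeR adjusted p = 3.22e-06). Trim25 fell to 1.05 ± 0.00392 CPM, against 23.6 ± 0.0897 CPM (log2 -4.48, SE 0.196, edgeR adjusted p = 2.12e-12). Of the receptors, kinases and STATs, 6 of 11 rose and 2 fell. Ifngr2, a chain of the interferon gamma receptor, rose with a log2 fold change of 2.18 (edgeR adjusted p = 7.69e-10) and Jak2, its kinase, with 1.72 (edgeR adjusted p = 1.13e-11). Of the other regulatory factors, Irf2, an antagonist of Irf1, rose to 10.6 ± 1.64 CPM, against 0.625 ± 0.0672 CPM (log2 4.07, edgeR adjusted p = 3.93e-10). Irf8 fell to 0.350 ± 0.0242 CPM, against 3.46 ± 0.581 CPM (log2 -3.27, edgeR adjusted p = 8.50e-08). Of the negative regulators, 2 of 6 rose and 3 fell, among them Ptpn6 (log2 -3.58, edgeR adjusted p = 2.99e-10) and Socs1 (log2 -2.39, edgeR adjusted p = 1.06e-04). In the kynurenine pathway Kyat1 rose (log2 0.98, edgeR adjusted p = 1.07e-04) and Afmid fell (log2 -0.55, edgeR adjusted p = 0.0317). The Afmid call was lost without day 4 replicate 1 (adjusted p = 0.104) and without day 0 replicate 1 (adjusted p = 0.391).

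Replicates differed in these genes in 2 groups. At day 4, replicate 1 was higher than replicate 2 for 52 of the 79 tested genes of the 9 and the other pathway genes, or 65.8%, against 48.6% of all genes. With MS-275 it was higher for 54 of 79, or 68.4%, against 51.8% of all genes. In the other 3 groups the share was 43% to 48.1%. The median log2 difference of the 26 effectors was 0.38 at day 4 and 0.11 with MS-275. Isg15, at 4.62 and 2.22 CPM, Bst2, at 4.88 and 2.17 CPM, and Rsad2, at 5.20 and 2.72 CPM, each had the higher value in replicate 1.

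At day 8, after replating in neuronal medium, 5 of the 9 genes were lower than at day 4 and the other 4 were not called, where 41.5% of all genes were called, 21.7% higher and 19.8% lower. Isg15 fell to 0.207 and 0.212 CPM at day 8, against 4.62 and 2.22 CPM at day 4, and was 16.5-fold lower (log2 -3.99, SE 0.522, edgeR adjusted p = 1.04e-05), or -3.38 on the log2 scale without day 4 replicate 1. Ifih1 fell to 0.362 and 0.742 CPM, against 1.84 and 1.72 CPM (log2 -1.68, SE 0.543, edgeR adjusted p = 0.0201). The Ifih1 call was lost without day 8 replicate 1 (adjusted p = 0.151), day 4 replicate 1 (adjusted p = 0.0842) or day 4 replicate 2 (adjusted p = 0.0617), and DESeq2 gave an adjusted p of 0.0511. Without day 8 replicate 2 the log2 fold change was -2.29. Irf1 fell to 6.05 and 4.82 CPM, against 10.1 and 8.78 CPM (log2 -0.80, SE 0.139, edgeR adjusted p = 2.01e-04). Irf9 fell to 14.1 and 15.9 CPM, against 22.2 and 20.7 CPM (log2 -0.51, SE 0.110, edgeR adjusted p = 0.00125), and stayed above its day 0 values. Bst2 fell to 1.24 and 2.07 CPM, against 4.88 and 2.17 CPM (log2 -1.11, SE 0.310, edgeR adjusted p = 0.00868). That call was lost without day 8 replicate 1 (log2 -0.79, adjusted p = 0.105) and without day 4 replicate 1 (log2 -0.41, adjusted p = 0.322). Stat2 did not pass, with 31.7 and 32.9 CPM in day 8 cells against 36.4 and 33.2 CPM in day 4 cells (edgeR adjusted p = 0.306).

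**Figure D2:**
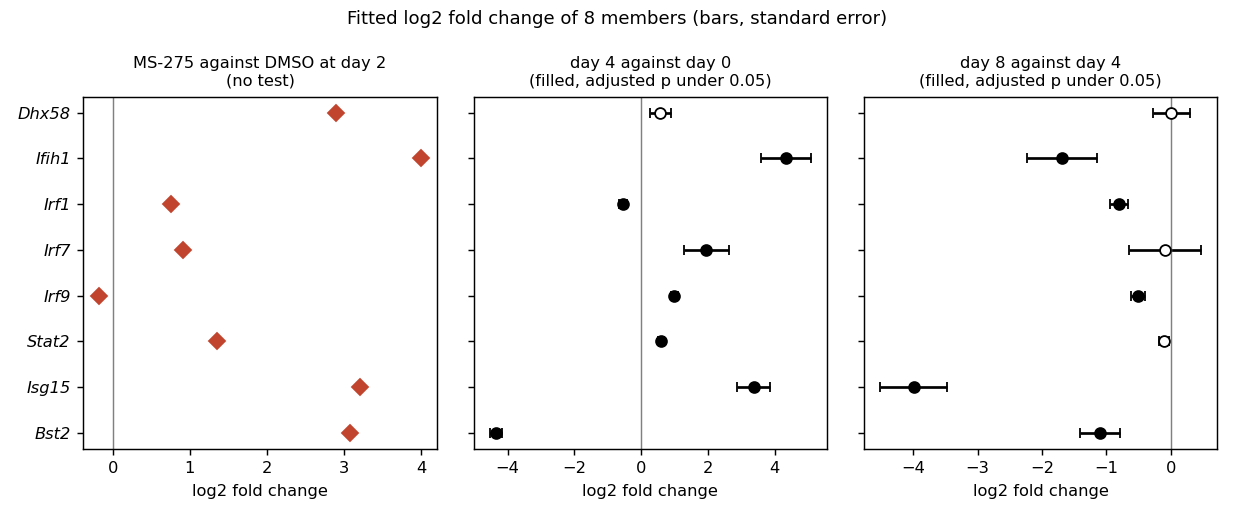
Fitted log2 fold change (horizontal) of 8 genes (vertical) in 3 comparisons, without Ido1, whose groups at 0 counts or 1 give no stable fold. Bars are standard errors and filled points have an edgeR adjusted p under 0.05, but the MS-275 panel carries no test. Isg15 is at 3.37 for day 4 against day 0 and at -3.99 for day 8 against day 4.

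Of the 26 effectors tested, 15 fell at day 8 against day 4 and 2 rose, but the 5 kept only through the day 4 libraries had to be higher there, and 4 of them are among the 15. Of the other 21, 11 fell and 2 rose, or 52.4% and 9.52%, with a median log2 fold change of -0.85. Over all other pathway genes tested, 26 of 70 fell and 7 rose, or 37.1% and 10%, where 19.8% and 21.7% of all genes did. Without genes kept only through one of the groups compared, 22 of 65 fell and 7 rose, or 33.8% and 10.8%, where 20% and 21.3% of all genes did. Ifit1 and Oasl1, kept through day 4 alone, are given without a test. Ifit1 had 0.185 ± 0.188 CPM at day 8 and 4.24 ± 1.13 CPM at day 4 (SD, n = 2 each). Oasl1 had 2 counts in day 8 cells, both in replicate 2, and 63 in day 4 cells. Usp18 fell to 0.627 ± 0.137 CPM, against 2.35 ± 0.0206 CPM (log2 -1.89, edgeR adjusted p = 0.00149). The sensors Ddx58 (log2 -1.47, edgeR adjusted p = 2.34e-05) and Tmem173, which encodes the adaptor STING (log2 -1.30, edgeR adjusted p = 0.00369), fell, among 5 of 12 sensors and adaptors that did. Socs3 (log2 -1.86, edgeR adjusted p = 3.76e-08), Irf5 (log2 -2.18, edgeR adjusted p = 0.00186) and Afmid (log2 -0.91, edgeR adjusted p = 0.00629) also fell, and the Afmid call was lost without day 8 replicate 2 (adjusted p = 0.0652). Il10rb, a receptor chain for interferon lambda, rose (log2 1.14, edgeR adjusted p = 0.0447), a call lost without day 8 replicate 1 (adjusted p = 0.227), day 4 replicate 1 (adjusted p = 0.132) or day 4 replicate 2 (adjusted p = 0.154). This comparison shares the day 4 libraries with the one against day 0.

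**Figure D3:**
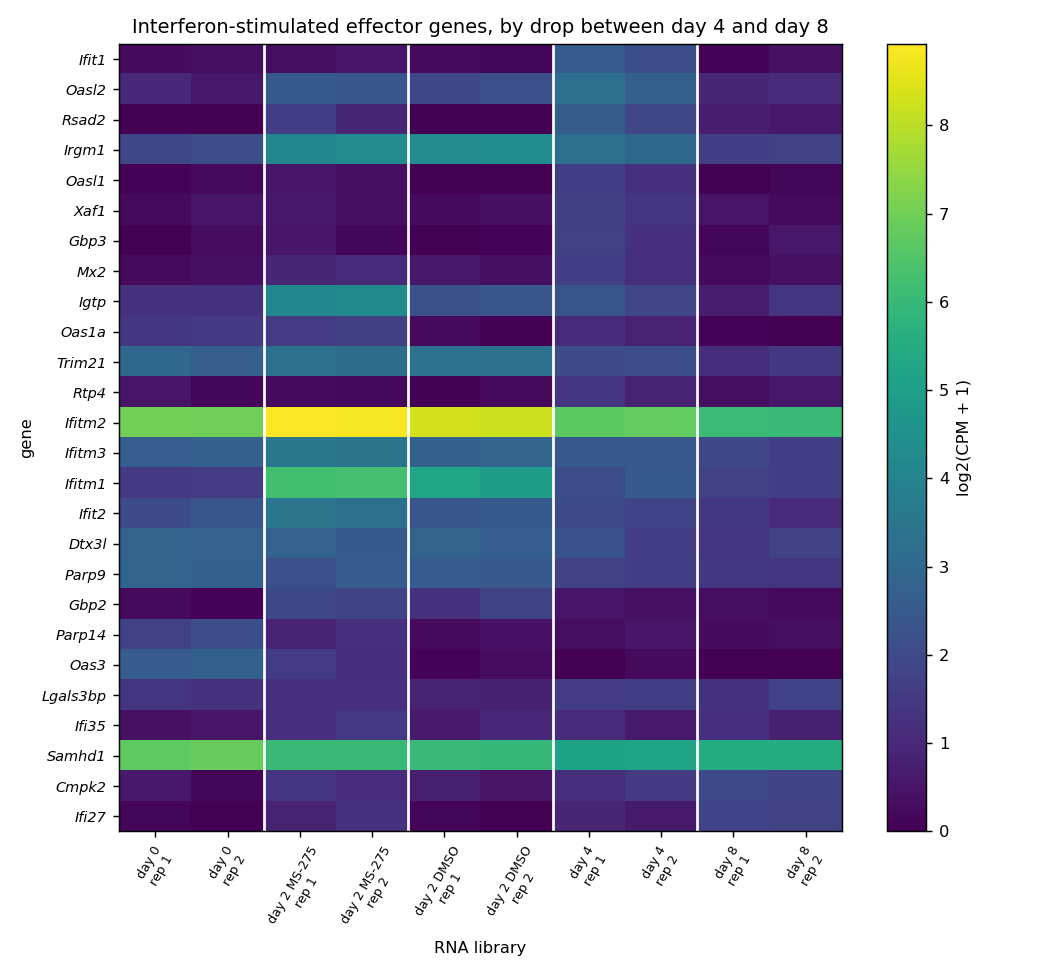
Level of the 26 tested interferon-stimulated effectors (rows) in the 10 RNA libraries (columns) as log2(CPM + 1), ordered by the drop between day 4 and day 8. Ifit1, Rsad2 and Oasl1 are high at day 4 and low at day 8, Ifit1 and Oasl1 having passed the filter only through day 4, while Rsad2 and Igtp are also higher with MS-275 than with DMSO.

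By number of genes at or above a group mean of 1 CPM, 8 of the 9 were expressed with MS-275, against 5 with DMSO, and there were 5 at day 0, 7 at day 4 and 5 at day 8. Of all genes tested, 83.6% reached that level with MS-275 and 77.1% with DMSO, against 78.1% at day 0, 79.3% at day 4 and 81.2% at day 8, and the 9 genes were picked for their rise with the drug. Of all 32 effectors listed, 21 reached 1 CPM with MS-275 and 12 with DMSO, while 14 did at day 0, 20 at day 4 and 15 at day 8. Among 14010 genes, those whose log2 CPM followed Dhx58 most closely over the 10 libraries were Scyl2, Tcaf2, Reck, Ccdc82 and Gipc3, with Pearson r of 0.992 to 0.984. For Ido1 they were Cd7, Tjp3, Exph5, Snx3 and Rhof, with r of 0.978 to 0.972. All these genes had higher mean CPM with MS-275 than with DMSO, for example Tcaf2 at 31.3 CPM and 5.29 CPM. Because Dhx58 and Ido1 were picked for their rise with MS-275, genes that follow them this closely had to be higher there. None of the 10 is on the pathway lists.

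Peaks were assigned to a gene when they touched it or the 1 kb beyond either end, and were compared over 15968 tested genes with a single RefSeq span. No test was possible at day 2, where each mark had 1 library per condition, and the lists carry no read depth. The MS-275 lists of H3K9ac and H3K9cr were longer than the DMSO lists, with 84418 against 26555 and 70748 against 24874 peaks, while those of H3K18la had 31577 against 36382. For H3K9ac, 8 of the 9 genes had a peak with MS-275, against 6 with DMSO, where 93.2% and 88.5% of all genes did. For H3K9cr it was 7 with each, where 92.4% and 88.3% of all genes had one. For H3K18la, 5 had a peak with MS-275, against 4 with DMSO, where the shares of all genes were 42.2% and 81.1%.

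Dhx58 had no peak in any DMSO list and peaks in all 3 MS-275 lists. Such a gain was seen in 4.99% of genes for H3K9ac, 4.68% for H3K9cr and 2.39% for H3K18la. The widest were an H3K9ac peak of 4834 bases at chr11:100699033-100703866 and an H3K9cr peak of 5249 bases at chr11:100698857-100704105, with fold enrichment of 9.56 and 11.5 in the authors' lists. Peaks covered 53.1% of the Dhx58 window for H3K9ac, 63.6% for H3K9cr and 12.8% for H3K18la. Some of these lie below the gene's lower coordinate, in Gm38483, and cannot be assigned to either gene. At day 4 Dhx58 had only short peaks of H3K9ac in 1 list and of H3K9cr in both. Ido1 gained H3K9ac and H3K18la peaks with MS-275, and had an H3K9cr peak in both conditions. The H3K9cr peak had a fold enrichment of 5.60 with MS-275, in a list with a median of 5.02, and of 11.2 with DMSO, in a list with a median of 16.7. It stood above 58.1% of peaks in the MS-275 list and above 41.0% in the DMSO list, and the lists are of unequal length. Ido1 also had H3K9ac, H3K9cr and ATAC peaks in both day 4 lists of each, with fold enrichment of 12.2 and 12.6 for H3K9ac, although its RNA had 0 counts there. The gene Gm51565 overlaps Ido1. Which gene the peaks at Ido1 belong to, those gained with MS-275 included, was not tested.

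Isg15 and Bst2 were among the 6 genes with peaks in both conditions, as were 88.2% of all genes for H3K9ac and 87.8% for H3K9cr, but their peaks were of unlike width. With MS-275 an H3K9ac peak of 8540 bases, at chr8:71530376-71538915, covered 100% of the Bst2 window, against 20.7% with DMSO. An H3K9ac peak of 7421 bases, at chr4:156197795-156205215, covered 100% of the Isg15 window, against 2.68% with DMSO. H3K9cr covered 81.7% and 16.6% of the Bst2 window with MS-275 and DMSO, and 85.9% and 4.12% of the Isg15 window. Over all genes the median cover by H3K9ac was 13.1% with MS-275 and 5.73% with DMSO, and 14.2% and 3.2% of genes were covered over more of their window than they left free. For H3K9cr the medians were 11.9% and 5.59%, and the shares 13.1% and 3.07%. The windows of Isg15 and Bst2 are short, at 3395 and 5218 bases, so a single wide peak can fill them. Cover was not compared among genes of like window length. The DMSO and day 4 peaks at Isg15 had their summits 2665 to 2984 bases downstream of its start, past its far end and inside the non-coding gene Gm46878. At Bst2 the day 4 ATAC summits lay 21 bases after and 17 bases before the start.

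**Figure D4:**
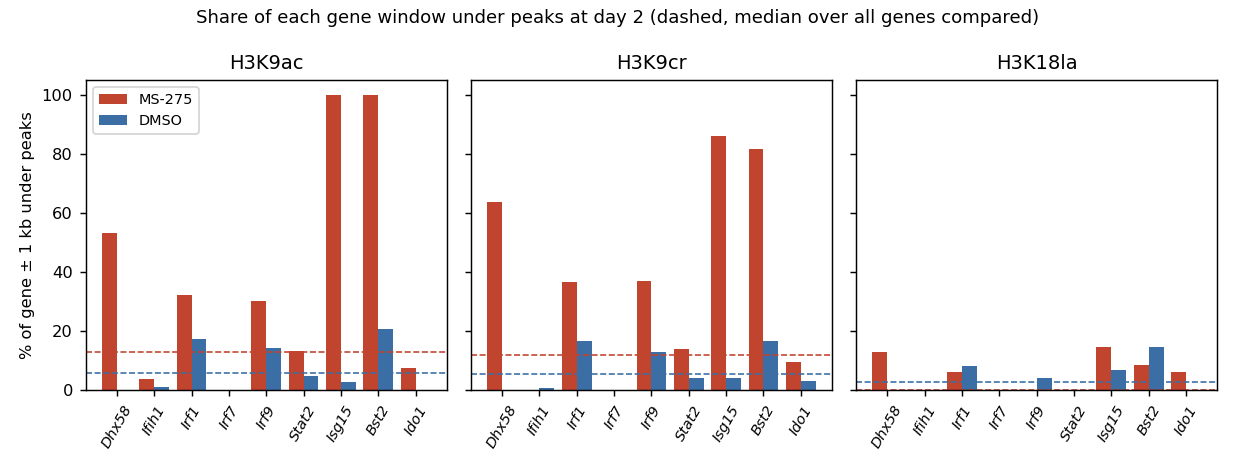
Share of each gene with 1 kb on either side that lies under peaks (vertical, percent) at day 2, with MS-275 left and DMSO right in each pair, for 3 marks from 1 library each. Bst2 and Isg15 reach 100% for H3K9ac with MS-275, and dashed lines give the median over 15968 genes.

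The transcription factor genes Stat2, Irf1 and Irf9 had H3K9ac and H3K9cr peaks in all 4 lists of each mark, day 2 lists of both conditions included. The strongest H3K9ac fold enrichment at Stat2 was 18.1 with MS-275 and 27.2 with DMSO, and 53.5 and 53.6 at day 4. Because the median fold enrichment of a whole list was 4.73 with MS-275 and 13.8 with DMSO for H3K9ac, these values are not comparable between lists. Ranked within their own lists, the Stat2 peaks stood above 95.8% of H3K9ac peaks with MS-275 and above 65.3% with DMSO, in lists of unequal length. Irf9 had an H3K18la peak with DMSO and not with MS-275, as did 41.3% of genes, while Irf1, Isg15 and Bst2 had it in both conditions, as did 39.8%, and Stat2, Ifih1 and Irf7 in neither, as did 16.5%. Ifih1 had an H3K9cr peak with DMSO and none with MS-275, a loss seen in 0.564% of genes, while its RNA was higher with the drug. Irf7 had no peak of any kind in the 14 lists, where 6.47% of all genes lacked H3K9ac and 6.99% lacked H3K9cr in both day 2 lists. At day 4, peaks in both replicate lists were found for 7 of the 9 genes for H3K9ac, 8 for H3K9cr, 4 for H3K18la and 5 for ATAC, where 90.3%, 88.9%, 79.4% and 77.0% of all genes had them.

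**Figure D5:**
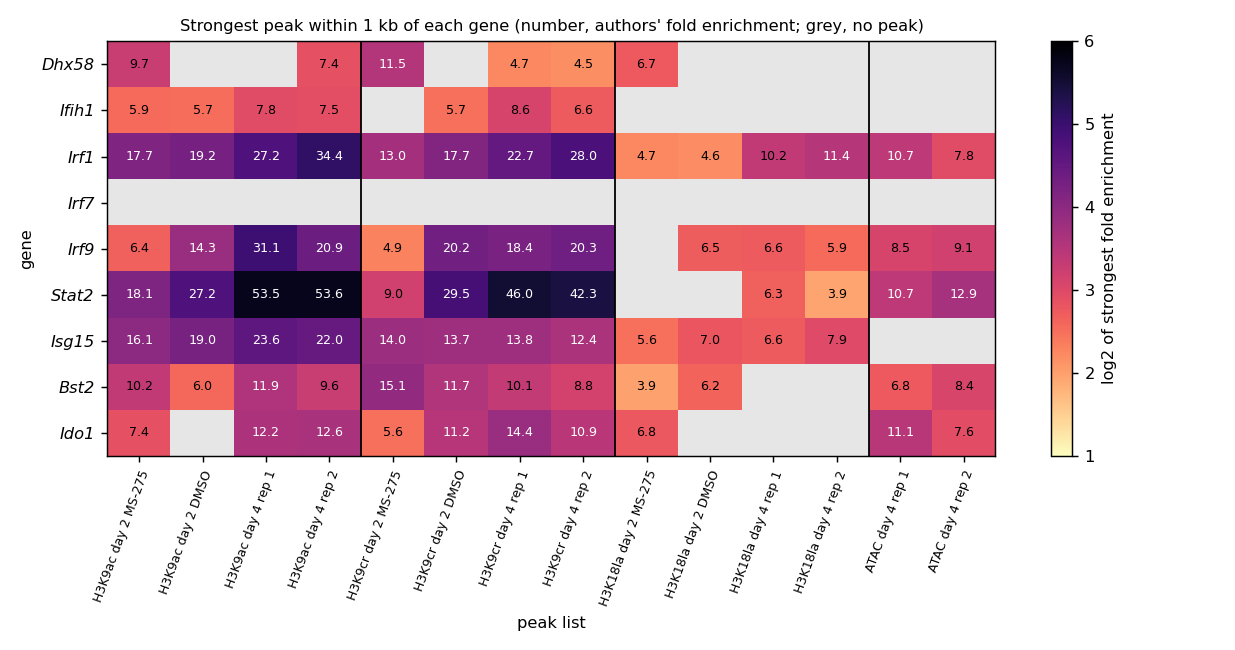
Fold enrichment of the strongest peak within 1 kb of each gene (rows) in the 14 peak lists (columns), as given by the authors and coloured on a log2 scale, with grey where no peak lies. Dhx58 is grey in all 3 DMSO lists, Irf7 is grey throughout, and Stat2 reaches 53.5 and 53.6 for H3K9ac at day 4.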

How the data were processed

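RNA-seq, ChIP-seq and ATAC-seq of P19 cells were used as deposited. Per the submitters' processing notes, the tools were Salmon 1.1.0, Bowtie2 2.4.1, MACS2 2.2.7.1 and DESeq2 1.26.0 with GRCm38. The annotation release and library strand are not given in the sources used here, so reads of overlapping or antisense genes cannot be told apart. The deposited RNA table holds estimated counts per gene, of which 19.2% to 25.8% were not whole, and they were rounded. Per the file headers, the peak lists hold the authors' pileup signal, −log10 q-values and p-values, and fold enrichment, called per library down to a −log10 q of 2.

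Counts were fitted over all 10 libraries with edgeR 4.0.16 (R 4.3.3, limma 3.58.1; TMM, filterByExpr with a minimum count of 10), quasi-likelihood test, Benjamini-Hochberg over 17789 genes, threshold 0.05. The method was tested on simulated data in a single comparison, with the same spread for every gene and changes placed only in genes of higher count. It does not cover genes of low count such as Ido1, Ifih1 and Irf7. DESeq2 1.42.0 and other settings were alternatives; depth was 18115738 to 19586107 per library. Symbols were matched for 55144 of 55385 identifiers. All 9 members were named, and from each list the 2 called genes with the largest fold change and a group mean of 1 CPM. Some genes that this rule names are not reported here. Ddx58, Mavs and, at day 4, Ifit1 were added after their values were seen. Members and lists were chosen with earlier results of these data known. Input libraries were not used.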

Additional observations from a re-analysis of the deposited data

How the results depend on the processing

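Each result was refitted with RLE size factors, without the filter on low counts, with only the 4 libraries compared, with DESeq2, with the replicate number as a block and without each library in turn. The refits of effector counts, and counts without genes that passed the filter on low counts only through one of the groups compared, were chosen after seeing the data. Without such genes, effectors that rose at day 4 numbered 8 rather than 13, since 5 were no longer counted. Replicate numbers do not pair these samples, since same-numbered libraries had correlations of deviations between -0.0306 and 0.0378. With the replicate block, 1 of the 9 genes rather than 2 rose with DMSO over day 0, since Irf9 moved to an adjusted p of 0.0502, and Il10rb was no longer called at day 8 (adjusted p = 0.0579). The count of 1 was also found with RLE size factors, with DESeq2, and without each library (range 1 to 1), and RLE made Stat2 a second gene that fell, 2 in all. Without a library, the genes that fell at day 8 numbered 3 to 5, other pathway genes that rose at day 8 numbered 4 to 5, and effectors that rose 1 to 2. Directions turned only in values that were not called, where the cause was not tested: Ifih1 in DMSO over day 0 was -0.47 without DMSO replicate 1 and -0.60 without day 0 replicate 1, with a highest value of 4.14, and Irf7 there spanned -0.33 to 2.61. At day 8 over day 4, Dhx58 spanned -0.55 to 0.40 over the libraries left out, Irf7 -0.39 to 0.22 and Ido1 0 to 3.13. With peaks only within 1 kb of the gene start, genes with a peak numbered 5 for H3K9ac in day 4 replicate 2, 5 for H3K9cr in each day 4 replicate and 3 for H3K18la with MS-275, which was 2 with no window beyond the gene. Dhx58 and Ido1 had no promoter entry to give a gene start, so the gene start counts leave them out whatever their peaks. All other counts of genes called or with a peak, 224 in all, stayed within 1.5 times. Low counts limit Ido1, Ifih1 and Irf7, and a single ChIP library per condition limits every peak comparison at day 2.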
